A study of Mus musculus with 9 samples.

Results

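Transcript levels of 10 antiviral genes known for induction by type I interferon were followed in mouse liver. They were Irf7, Usp18, Isg15, Ifit1, Ifit2, Ifit3, Oas1a, Oas2, Oasl2 and Rsad2. Whether type I interferon itself acted in these livers was not tested. The 10 genes were taken by name, and all 10 were among the 13151 genes tested of 35275 entries in the deposited table. Livers of C57BL/6 mice were sequenced as total RNA after injections of AdipoRonPEG5, of AdipoRon or of a PBS vehicle, with 3 libraries per group. AdipoRon is a synthetic compound that activates the receptors of adiponectin, a hormone of fat tissue, and AdipoRonPEG5 is a PEGylated analog of it. A single regimen is labelled for the compounds and PBS alike, namely 5 mg/kg at 2 injections a day over 5 days, which leaves the compounds' own dose uncertain. No genetic change is named for any group, and age, sex and diet of these mice are not given in the labels. The series compares both compounds and vehicle in liver, and here each compound was set against vehicle and AdipoRonPEG5 against AdipoRon. The comparisons against vehicle share the vehicle libraries.

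Type I interferons bind a receptor on nearly every cell type and switch on interferon-stimulated genes through a transcription factor complex that holds STAT2 and IRF9 and binds a DNA element made of repeated GAAA half-sites. The products block viruses at several steps: IFIT proteins hold back viral RNA from translation, OAS enzymes make oligoadenylates that set off the breakdown of RNA, viperin (Rsad2) makes a nucleotide that stops viral RNA synthesis, and ISG15 is a ubiquitin-like tag. IRF7 raises interferon production itself, and USP18 removes ISG15 and dampens signalling at the receptor. In liver, hepatocytes, endothelial cells and resident macrophages can all express such genes.

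Library totals were 15953316 to 18508950 counts with AdipoRonPEG5, 14320743 to 17622436 with AdipoRon, and 39473195, 13942322 and 14492307 in vehicle 1, 2 and 3. The 10 genes had between 45 and 1881 counts in each library, far above the floor of 3 counts. AdipoRonPEG5 1 and vehicle 3 stood apart in Saa1, an acute phase gene chosen after its values were seen, at 1952 and 4959 CPM (counts scaled to library size with TMM factors), against 45.07 to 496.6 CPM in the other 7 libraries. Hepatocyte markers were abundant in all libraries. Of 6 tested, 3 were called lower with AdipoRonPEG5 against vehicle, Apoa1, Cps1 and Serpina1a, with log2 fold changes of -0.65, -0.47 and -0.43. The other 3 were not called, and 2 of the 6 had log2 fold changes above 0. Among all genes tested, 7.63% were called lower in this comparison. The count of hepatocyte markers called was 0 without AdipoRonPEG5 1 or AdipoRonPEG5 2 and 1 without vehicle 2. Reads come from whole liver, so fewer cells of a type and less RNA per cell cannot be told apart.

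The promoters of 8 of the 10 genes were found by symbol in the RefSeq promoter table (GRCm38.p6); Oas2 and Usp18 were not. In the 250 bases before the annotated start, 2 GAAA half-sites separated by any 2 bases, the core of the element bound by the interferon-activated complex, were found on either strand in 5 of these 8 genes. The same search found it in 2.98% of 32851 promoters. The stretches that hold the matches are shown to let the shared half-sites be seen, 5′ to 3′ on the strand of the gene, with the matches in capitals (TTTC is the reverse complement of GAAA). They lie on GRCm38.p6 at chr4:156200850-156200921 (minus strand, Isg15), chr5:120907526-120907570 (minus strand, Oas1a), chr12:26456538-26456597 (minus strand, Rsad2), chr19:34583348-34583441 (plus strand, Ifit3) and chr19:34640760-34640838 (plus strand, Ifit1).
Isg15: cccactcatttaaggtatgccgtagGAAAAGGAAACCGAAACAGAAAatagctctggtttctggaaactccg
Oas1a: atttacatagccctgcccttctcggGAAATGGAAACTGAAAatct
Rsad2: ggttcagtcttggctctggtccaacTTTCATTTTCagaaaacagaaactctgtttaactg
Ifit3: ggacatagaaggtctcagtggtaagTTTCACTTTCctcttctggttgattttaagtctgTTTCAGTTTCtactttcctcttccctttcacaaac
Ifit1: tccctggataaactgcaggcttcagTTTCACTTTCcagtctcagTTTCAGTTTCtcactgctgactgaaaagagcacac

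Isg15 had 3 overlapping matches, at positions -78, -72 and -66 from the start. Oas1a had 2 overlapping matches, at -20 and -14, Ifit3 had 2 at -156 and -122, Ifit1 had 2 at -104 and -85, and Rsad2 had 1 at -120. The windows of Irf7, Ifit2 (which has a pair of annotated starts) and Oasl2 held none of these letters. A second motif, TTCNNNGAA, known from genes that answer to interferon-gamma (it reads the same on both strands), was found in Oas1a at -98 and in Ifit2 at -241, against 7.02% of all promoters. These matches are letters in a window, not measured binding. With AdipoRon against vehicle, the 5 genes with the first motif had log2 fold changes of 0.78 (Oas1a), 0.66 (Rsad2), 0.65 (Ifit3), 0.49 (Ifit1) and 0.28 (Isg15). Of these, Oas1a and Isg15 were not called. The 3 searched genes without it had 1.21 (Ifit2), 0.88 (Oasl2) and 0.61 (Irf7), all called. A link between the motif and the change was not tested.

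With AdipoRonPEG5, 3 of the 10 genes rose against vehicle, Ifit2, Irf7 and Usp18, and none fell. With AdipoRon, 8 rose against vehicle, Ifit1, Ifit2, Ifit3, Irf7, Oas2, Oasl2, Rsad2 and Usp18, by 1.41-fold to 2.31-fold, and none fell. Between the compounds, Oas2, Rsad2 and Ifit3 were lower with AdipoRonPEG5 than with AdipoRon, and no member was called higher. A gene was called when its edgeR quasi-likelihood p, adjusted by Benjamini-Hochberg over all 13151 genes, was under 0.05. For the whole table, 9.55% of genes were called higher and 7.63% lower with AdipoRonPEG5 against vehicle, 3.8% higher and 1.4% lower with AdipoRon against vehicle, and 2.68% higher and 2.71% lower with AdipoRonPEG5 against AdipoRon. The median log2 fold change of the 10 genes was 0.26, 0.70 and -0.46 in these comparisons, while the median of all genes tested was -0.0013, 0.0057 and -0.0125. The balance of calls depended on the scaling. With libraries scaled by their total counts, 12.9% of genes were called higher and 4.44% lower with AdipoRonPEG5 against vehicle, and 6.71% higher and 0.487% lower with AdipoRon against vehicle, with medians of all genes at 0.081 and 0.10. The 10 genes then had 4 and 9 called higher (Oas1a added in both) and medians of 0.34 and 0.80, and Ifit3 missed its call between the compounds (adjusted p = 0.0522).

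Library by library, in 4 of the 10 genes all AdipoRonPEG5 libraries were above all vehicle libraries, as in 18.2% of all genes. In 9 of the 10, all but Isg15, every AdipoRon library was above every vehicle library, as in 14.4% of all genes. In 6 of the 10, Ifit1, Ifit2, Ifit3, Oas2, Oasl2 and Rsad2, every AdipoRonPEG5 library was below every AdipoRon library, as in 14.3% of all genes. Summed over the 10 genes, the level was 189.4, 171.9 and 193.5 CPM in the AdipoRonPEG5 libraries, 246.1, 220.5 and 189.0 CPM in the AdipoRon libraries, and 130.6, 139.8 and 151.7 CPM in the vehicle libraries. Every library of either compound was above vehicle in this sum, and the AdipoRon libraries spread the most. Irf7 alone made up 87.9 ± 7.11, 88.6 ± 17.6 and 58.3 ± 11 CPM of it (AdipoRonPEG5, AdipoRon and vehicle, mean ± SD, n = 3). That was the largest part held by any of the 10 genes, but its mean differed little between the compounds.

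**Figure D1:**
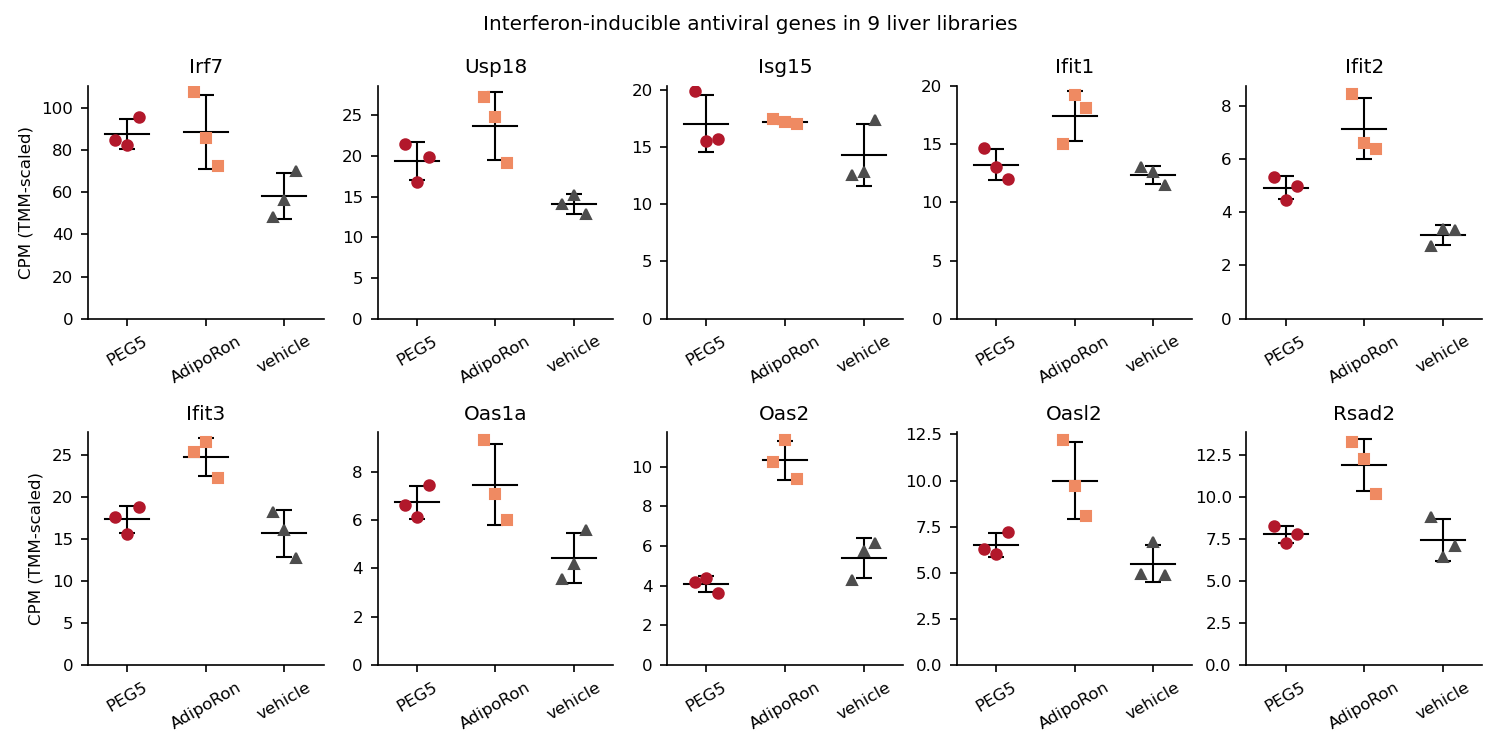
Level of each of the 10 genes in CPM (TMM-scaled) in the 9 liver libraries, with AdipoRonPEG5 (written PEG5), AdipoRon and vehicle from left to right; points are libraries, bars are mean ± SD of 3. AdipoRon libraries of Oas2 lie at 9.363 to 11.33 CPM, above every other library, while Irf7 is at similar levels with both compounds.

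Irf7, the transcription factor that amplifies the interferon response, was the most abundant of the 10. It was measured at 85.08, 82.64 and 96.00 CPM in the AdipoRonPEG5 libraries, 107.5, 85.87 and 72.51 CPM in the AdipoRon libraries, and 48.35, 56.5 and 70.07 CPM in the vehicle libraries. Both compounds lay above vehicle without overlap, and AdipoRon libraries lay on both sides of the AdipoRonPEG5 libraries. The rise was 1.51-fold with AdipoRonPEG5 (log2 0.60 ± 0.16 SE, edgeR adjusted p = 0.0238) and 1.53-fold with AdipoRon (log2 0.61 ± 0.16, adjusted p = 0.0482). Between the compounds the log2 difference was -0.012 (95% confidence interval -0.35 to 0.33, adjusted p = 0.975), an interval that leaves room for a difference in either direction.

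Usp18, the protease that removes ISG15 from proteins, had 21.41, 16.77 and 19.92 CPM in the AdipoRonPEG5 libraries, 27.21, 24.72 and 19.07 CPM in the AdipoRon libraries, and 14.09, 15.25 and 12.87 CPM in the vehicle libraries. No library of either compound overlapped with vehicle. It rose 1.37-fold with AdipoRonPEG5 (log2 0.46 ± 0.14, edgeR adjusted p = 0.0468) and 1.68-fold with AdipoRon (log2 0.75 ± 0.14, adjusted p = 0.0146). The difference between the compounds was not called (log2 -0.29, 95% interval -0.60 to 0.012, adjusted p = 0.25).

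Isg15, the ubiquitin-like tag that Usp18 removes, was called in none of the comparisons. Its levels were 19.93, 15.52 and 15.72 CPM in the AdipoRonPEG5 libraries, 17.46, 17.16 and 17.02 CPM in the AdipoRon libraries, and 12.57, 12.86 and 17.41 CPM in the vehicle libraries. The highest vehicle value came from vehicle 3, which also had the highest Saa1, and the part of that library in the result was not tested beyond leaving it out. The log2 fold change was 0.27 with AdipoRonPEG5 (95% interval -0.045 to 0.58, edgeR adjusted p = 0.228) and 0.28 with AdipoRon (-0.031 to 0.59, adjusted p = 0.278). Without vehicle 3, Isg15 was called higher with AdipoRonPEG5 (log2 0.42, adjusted p = 0.0379). That was its 1 call among 18 alternatives in this comparison. AdipoRonPEG5 1, the other library high in Saa1, had the highest Isg15 value, 19.93 CPM. With both of these libraries left out, Isg15 was not called with AdipoRonPEG5 against vehicle. It was then called with AdipoRon against vehicle (log2 0.435, edgeR adjusted p = 0.0401).

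Among the IFIT genes, which lie near each other on chromosome 19, Ifit2 differed most from vehicle. Ifit2, whose product binds AU-rich RNA, had 5.306, 4.464 and 4.994 CPM in the AdipoRonPEG5 libraries, 8.453, 6.61 and 6.356 CPM in the AdipoRon libraries, and 2.725, 3.363 and 3.347 CPM in the vehicle libraries. The groups were stacked without overlap, AdipoRon highest and vehicle lowest. Ifit2 rose 1.59-fold with AdipoRonPEG5 (log2 0.67 ± 0.18, edgeR adjusted p = 0.0247) and 2.31-fold with AdipoRon (log2 1.21 ± 0.17, adjusted p = 0.00468). Between the compounds the log2 difference was -0.54 (95% interval -0.90 to -0.17) with an adjusted p of 0.0872, which misses the threshold.

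Ifit3, another gene of the IFIT family, had 17.65, 15.62 and 18.81 CPM in the AdipoRonPEG5 libraries, 25.42, 26.61 and 22.28 CPM in the AdipoRon libraries, and 18.23, 16.14 and 12.72 CPM in the vehicle libraries. AdipoRon stood alone at the top, and AdipoRonPEG5 overlapped with vehicle. It rose 1.56-fold with AdipoRon against vehicle (log2 0.65 ± 0.13, edgeR adjusted p = 0.0221) and was lower with AdipoRonPEG5 than with AdipoRon (log2 -0.52 ± 0.13, adjusted p = 0.0489). The log2 fold change of AdipoRonPEG5 against vehicle was 0.13 (95% interval -0.17 to 0.43, adjusted p = 0.555).

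Ifit1, which binds viral RNA caps that lack full methylation, had 14.68, 13.03 and 12.02 CPM in the AdipoRonPEG5 libraries, 15.05, 19.22 and 18.11 CPM in the AdipoRon libraries, and 13.01, 12.63 and 11.53 CPM in the vehicle libraries. The lowest AdipoRon library was only just above the highest AdipoRonPEG5 library. Ifit1 rose 1.41-fold with AdipoRon (log2 0.49 ± 0.12, edgeR adjusted p = 0.0424), and its log2 fold change with AdipoRonPEG5 was 0.091 (95% interval -0.18 to 0.36, adjusted p = 0.654). Between the compounds it was -0.40 (95% interval -0.66 to -0.13, adjusted p = 0.082).

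Oas2, an enzyme that makes oligoadenylates on double-stranded RNA, had the largest fitted difference between the compounds among the 10. It had 4.196, 4.412 and 3.638 CPM in the AdipoRonPEG5 libraries, 10.24, 11.33 and 9.363 CPM in the AdipoRon libraries, and 4.267, 5.755 and 6.174 CPM in the vehicle libraries. These rest on 59 to 85 counts per library with AdipoRonPEG5, 137 to 204 with AdipoRon and 77 to 166 in vehicle. AdipoRon libraries were far above both other groups, and AdipoRonPEG5 libraries lay at or below the vehicle range with 1 of them inside it. Oas2 was lower with AdipoRonPEG5 than with AdipoRon by -1.34 ± 0.17 on the log2 scale (95% interval -1.71 to -0.96, edgeR adjusted p = 0.00253), a 2.52-fold difference. It rose 1.95-fold with AdipoRon against vehicle (log2 0.96 ± 0.17, adjusted p = 0.0102). It was the only one of the 10 with a negative value for AdipoRonPEG5 against vehicle, not called (log2 -0.37, 95% interval -0.76 to 0.012, adjusted p = 0.174).

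Its relative Oas1a behaved otherwise. Oas1a, another oligoadenylate synthetase, had 6.602, 6.125 and 7.461 CPM in the AdipoRonPEG5 libraries, 9.317, 7.054 and 6.014 CPM in the AdipoRon libraries, and 3.547, 4.185 and 5.579 CPM in the vehicle libraries. Both compounds were above vehicle without overlap, but neither comparison passed (AdipoRonPEG5 log2 0.63 ± 0.21, edgeR adjusted p = 0.0624, and AdipoRon log2 0.78 ± 0.21, adjusted p = 0.0555). Without vehicle 3 both were called, and so was AdipoRonPEG5 without AdipoRon 1 and AdipoRon without AdipoRon 3, with adjusted p from 0.0225 to 0.049. Between the compounds the log2 difference was -0.15 (95% interval -0.60 to 0.29, adjusted p = 0.719). The ratio of Oas2 to Oas1a on the length-scaled FPKM values, a measure chosen after the values were seen, was 0.302, 0.343 and 0.232 in the AdipoRonPEG5 libraries, 0.523, 0.764 and 0.741 in the AdipoRon libraries, and 0.572, 0.654 and 0.527 in the vehicle libraries. The AdipoRonPEG5 ratios did not overlap with those of either other group.

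Oasl2, an oligoadenylate synthetase-like gene, had 6.293, 6.022 and 7.214 CPM in the AdipoRonPEG5 libraries, 12.22, 9.72 and 8.064 CPM in the AdipoRon libraries, and 4.961, 6.652 and 4.909 CPM in the vehicle libraries. It rose 1.83-fold with AdipoRon (log2 0.88 ± 0.18, edgeR adjusted p = 0.0227), while AdipoRonPEG5 overlapped with vehicle (log2 0.25, 95% interval -0.16 to 0.66, adjusted p = 0.389). AdipoRonPEG5 was below AdipoRon without overlap but not called (log2 -0.62, 95% interval -1.02 to -0.23, adjusted p = 0.0727). The OAS and IFIT genes are close paralogs. The handling of reads that match several genes, and the strand setting of the counting, were not stated in the sources used.

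Rsad2, which encodes viperin, had 8.268, 7.267 and 7.769 CPM in the AdipoRonPEG5 libraries, 13.27, 12.22 and 10.18 CPM in the AdipoRon libraries, and 8.817, 6.428 and 7.066 CPM in the vehicle libraries. The AdipoRonPEG5 values lay inside the vehicle range, and AdipoRon lay above both. It rose 1.58-fold with AdipoRon against vehicle (log2 0.66 ± 0.15, edgeR adjusted p = 0.032), and was lower with AdipoRonPEG5 than with AdipoRon (log2 -0.62 ± 0.15, adjusted p = 0.041). Its log2 fold change with AdipoRonPEG5 against vehicle was 0.040 (95% interval -0.30 to 0.38, adjusted p = 0.893).

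**Figure D2:**
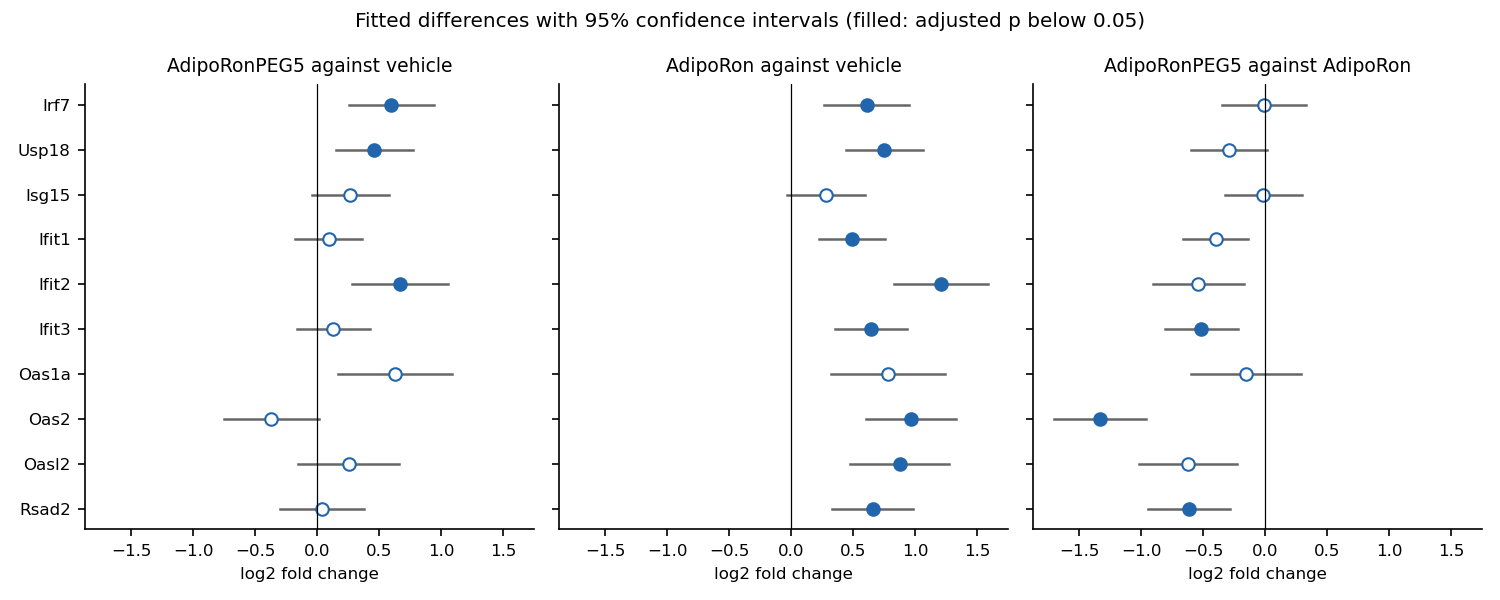
Fitted log2 fold change of each of the 10 genes with its 95% confidence interval in the 3 comparisons; filled points have an edgeR adjusted p below 0.05. With AdipoRon against vehicle 8 of 10 points are filled, with AdipoRonPEG5 against vehicle 3, and for AdipoRonPEG5 against AdipoRon 3, of which Oas2 at -1.34 is the farthest from 0.

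Only 3 of these calls held with each of the 9 libraries left out in turn: Ifit2 with AdipoRon against vehicle (log2 1.07 to 1.28), Oas2 with AdipoRon against vehicle (0.78 to 1.07), and Oas2 between AdipoRonPEG5 and AdipoRon (-1.40 to -1.26). With AdipoRonPEG5 against vehicle, no member was called without vehicle 1, vehicle 2 or AdipoRonPEG5 3 and 1 without AdipoRonPEG5 1. There, Ifit2 lost its call without vehicle 1, vehicle 2, AdipoRonPEG5 1 or AdipoRonPEG5 3 (adjusted p 0.0516 to 0.108), Irf7 without vehicle 1, vehicle 2, AdipoRonPEG5 2 or AdipoRonPEG5 3 (0.051 to 0.0886), and Usp18 without any 1 vehicle library, AdipoRon 2, AdipoRonPEG5 1 or AdipoRonPEG5 3 (0.0591 to 0.14). With AdipoRon against vehicle, the number called was 4 without vehicle 1, vehicle 2 or AdipoRon 1, 2 without AdipoRon 2, and 5 without AdipoRonPEG5 2. Usp18 lost its call there without vehicle 1 or AdipoRon 2 (adjusted p 0.0524 to 0.0528), Oasl2 without vehicle 1, AdipoRon 1 or AdipoRon 2 (0.0585 to 0.0814), and Ifit3 without vehicle 2, AdipoRon 1 or AdipoRon 2 (0.0626 to 0.0731). Rsad2 lost it without vehicle 2, vehicle 3, AdipoRon 1, AdipoRon 2 or AdipoRonPEG5 2 (0.0523 to 0.112), Ifit1 without any 1 vehicle library, AdipoRon 2, AdipoRon 3 or AdipoRonPEG5 2 (0.0701 to 0.136), and Irf7 without vehicle 1, vehicle 2, AdipoRon 1, AdipoRon 2 or any 1 AdipoRonPEG5 library (0.0647 to 0.147). Between AdipoRonPEG5 and AdipoRon, Oas2 alone was called without AdipoRon 1, AdipoRon 2 or any 1 AdipoRonPEG5 library. Rsad2 lost its call without each of those 5 (adjusted p 0.0806 to 0.139), and Ifit3 without those 5, AdipoRon 3 or vehicle 2 (0.0694 to 0.167). All of these called genes kept their direction in these fits.

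Per transcript length, on the deposited FPKM scale, the 10 genes spanned a wide range of levels in every group. In AdipoRonPEG5 livers the mean FPKM level ran from 39.8 for Irf7, 22.9 for Isg15, 11.1 for Usp18, 10.1 for Ifit3 and 5.07 for Ifit1 down to 3.62 for Oas1a, 2.11 for Oasl2, 1.88 for Rsad2, 1.31 for Ifit2 and 1.05 for Oas2. Among these neighbours only Usp18 and Ifit3 had overlapping libraries. In AdipoRon livers the order was Irf7 at 40.7, Isg15 at 23.4, Ifit3 at 14.6, Usp18 at 13.7, Ifit1 at 6.74, Oas1a at 4.07, Oasl2 at 3.29, Rsad2 at 2.92, Oas2 at 2.67 and Ifit2 at 1.92 FPKM. There Ifit3 and Usp18 overlapped, as did each neighbouring pair from Oas1a to Oas2. In vehicle livers it was Irf7 at 24.9, Isg15 at 18, Ifit3 at 8.64, Usp18 at 7.62, Ifit1 at 4.47, Oas1a at 2.24, Rsad2 at 1.7, Oasl2 at 1.69, Oas2 at 1.3 and Ifit2 at 0.787 FPKM. Irf7 and Isg15, Ifit3 and Usp18, Oas1a and Rsad2, and Rsad2 and Oasl2 overlapped in vehicle. Oas2 was thus the lowest of the 10 with AdipoRonPEG5 and the ninth with AdipoRon and vehicle, where Ifit2 was lowest.

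**Figure D3:**
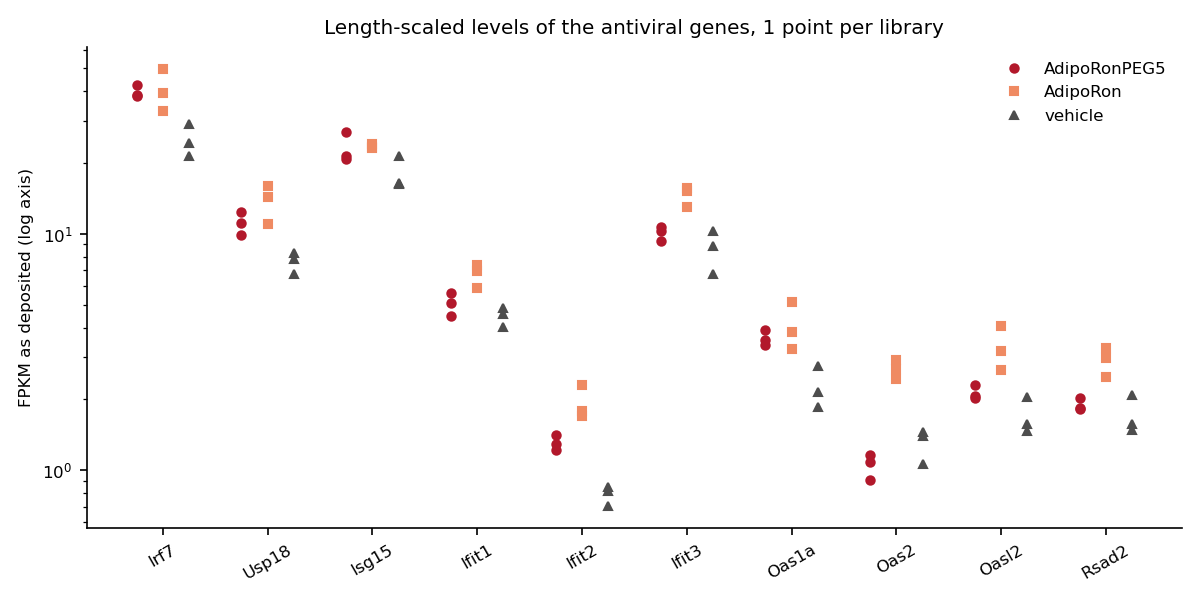
Deposited FPKM of the 10 genes on a log axis, 1 point per library, with AdipoRonPEG5, AdipoRon and vehicle side by side for each gene. Irf7 and Isg15 are the most abundant per length in each group, and Oas2 and Ifit2 the least.

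The interferons that induce these genes were barely seen. None of 17 ligand genes reached the filter for testing, and their counts summed over 3 libraries to 14 with AdipoRonPEG5, 10 with AdipoRon and 15 in vehicle. The 10 listed Ifna genes had no count in any group, and Ifnb1 had 2 counts, both in AdipoRonPEG5 2. Ifng, the type II interferon, had 6, 0 and 1 counts with AdipoRonPEG5, 0, 0 and 1 with AdipoRon and none in vehicle. Differences in ligand mRNA were not detectable at this depth.

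Of 10 tested genes for receptors and signalling, 2 rose with AdipoRonPEG5 against vehicle, 1 rose with AdipoRon against vehicle, and none was called between the compounds (median log2 0.11, 0.13 and -0.061). Over all genes tested, 9.55% were called higher and 7.63% lower with AdipoRonPEG5 against vehicle. With AdipoRon against vehicle, 3.8% were called higher and 1.4% lower. Counts in this list and in the lists below are to be read beside those shares. Ifngr1, a chain of the interferon-gamma receptor, rose by 0.72 ± 0.10 on the log2 scale with AdipoRonPEG5 (edgeR adjusted p = 0.00126) and by 0.44 ± 0.10 with AdipoRon (0.0325), the second call being lost without any 1 vehicle library, AdipoRon 1, AdipoRon 2 or AdipoRonPEG5 2 (adjusted p up to 0.107). Il10rb, a receptor chain that type III interferons use, rose with AdipoRonPEG5 (1.05 ± 0.24, adjusted p = 0.0126), a call lost without AdipoRonPEG5 2 (adjusted p up to 0.0616 over the alternatives), which leaves 1 called. Stat2 and Irf9, which encode subunits of the type I complex and were looked at after their values were seen, were not called. Stat2 had log2 values of -0.11, 0.13 and -0.24 and Irf9 of -0.033, 0.19 and -0.22 (AdipoRonPEG5 over vehicle, AdipoRon over vehicle, AdipoRonPEG5 over AdipoRon).

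Of 16 tested genes for RNA and DNA sensing, 3 rose and 3 fell with AdipoRonPEG5 against vehicle, 1 fell with AdipoRon against vehicle, and none was called between the compounds. Zbp1, a sensor of left-handed nucleic acid, had 24.86, 16.25 and 25.46 CPM in the AdipoRonPEG5 libraries, 13.39, 8.72 and 7.859 CPM in the AdipoRon libraries, and 3.162, 4.709 and 9.447 CPM in the vehicle libraries. Zbp1 rose with AdipoRonPEG5 by 2.02 ± 0.35 on the log2 scale (edgeR adjusted p = 0.00375). Ticam1, the adaptor of the endosomal RNA sensor TLR3, fell with both compounds (log2 -0.80 ± 0.13 with AdipoRonPEG5, adjusted p = 0.00254; log2 -0.63 ± 0.13 with AdipoRon, adjusted p = 0.0211). The AdipoRon call of Ticam1 was lost without vehicle 1, vehicle 2, AdipoRon 2 or AdipoRon 3 (adjusted p up to 0.0649), while 2 genes of the list were called without vehicle 3. Between the compounds 2 were called without vehicle 1 or vehicle 3. Mavs, the mitochondrial adaptor of cytosolic RNA sensing, fell with AdipoRonPEG5 (-0.35 ± 0.065, adjusted p = 0.00525).

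A list of 43 further tested effectors of the type I response, of 48 in the table, moved in part. With AdipoRonPEG5 against vehicle 15 rose and 1 fell (median log2 0.33), and with AdipoRon against vehicle 16 rose and none fell (median 0.45). Between AdipoRonPEG5 and AdipoRon 1 was lower and none higher (median -0.067). Lgals3bp, a secreted glycoprotein, rose with AdipoRonPEG5 by 0.65 ± 0.086 on the log2 scale (edgeR adjusted p = 0.000955). Parp14, an ADP-ribosyltransferase, rose by 0.52 ± 0.090 (adjusted p = 0.00333), and Apobec3, a cytidine deaminase that acts on retroviruses, by 1.71 ± 0.33 (adjusted p = 0.00574). With AdipoRon, Slfn8, a Schlafen family gene, rose by 1.55 ± 0.26 (adjusted p = 0.0099) and Ifi27l2a, a small mitochondrial interferon-inducible gene, by 0.84 ± 0.15 (adjusted p = 0.0126), a call lost without vehicle 1 or AdipoRon 2 (adjusted p up to 0.0566). The count called with AdipoRonPEG5 was 9 without AdipoRonPEG5 3. The count called with AdipoRon was 5 without vehicle 1 or vehicle 2, 7 without AdipoRon 1 and 4 without AdipoRon 2.

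Oas3 and Mx2 in that list are described library by library. Only their transcripts were measured, not the activity of their proteins. Oas3, the neighbour of Oas2 on chromosome 5 and a synthetase too, had 2.962, 2.18 and 2.713 CPM in the AdipoRonPEG5 libraries, 4.072, 3.166 and 2.597 CPM in the AdipoRon libraries, and 1.285, 1.196 and 1.339 CPM in the vehicle libraries. It rose with AdipoRonPEG5 by 1.03 ± 0.24 (edgeR adjusted p = 0.0139, lost without vehicle 1) and with AdipoRon by 1.36 ± 0.23 (adjusted p = 0.0102). Between AdipoRonPEG5 and AdipoRon its log2 difference was -0.33 (95% interval -0.81 to 0.15, adjusted p = 0.415). Mx2, a gene of the dynamin-like GTPase family, had 5.244, 5.97 and 6.412 CPM in the AdipoRonPEG5 libraries, 8.823, 11.28 and 9.636 CPM in the AdipoRon libraries, and 8.612, 10.24 and 9.149 CPM in the vehicle libraries. Every AdipoRonPEG5 library of Mx2 was below every other library, whereas for Oas3 both compounds lay above vehicle. Mx2 fell with AdipoRonPEG5 against vehicle by 0.66 ± 0.14 on the log2 scale (adjusted p = 0.00984) and was lower than with AdipoRon by -0.76 ± 0.14 (adjusted p = 0.0149). The second of these calls was lost without AdipoRon 2, AdipoRonPEG5 1 or AdipoRonPEG5 2 (adjusted p up to 0.0599). Its relative Mx1, looked at after its values were seen, was called in no comparison (log2 0.013 with AdipoRonPEG5 against vehicle, 0.58 with AdipoRon against vehicle and -0.56 between AdipoRonPEG5 and AdipoRon).

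Of the 4 tested genes of ISG15 conjugation other than Isg15 and Usp18, 1 rose with each compound against vehicle and none was called between the compounds. Uba7, the activating enzyme for ISG15, rose with AdipoRonPEG5 (log2 0.83 ± 0.18, edgeR adjusted p = 0.00957). Herc6, the mouse ligase for ISG15, rose with AdipoRon (0.58 ± 0.14, adjusted p = 0.0384), a call lost without any 1 vehicle library, any 1 AdipoRon library or AdipoRonPEG5 2 (adjusted p up to 0.126). Of 11 negative regulators, Ptpn6, a tyrosine phosphatase of blood cells, was the 1 gene called against vehicle, at a log2 fold change of 0.42 ± 0.10 with AdipoRonPEG5 (adjusted p = 0.0162) and of 0.41 ± 0.10 with AdipoRon (0.0443). The first of these calls was lost without vehicle 1, vehicle 2 or AdipoRonPEG5 1 (adjusted p up to 0.0654), and the second without vehicle 1, vehicle 2, AdipoRon 1, AdipoRon 3 or any 1 AdipoRonPEG5 library (up to 0.145). The list's count with AdipoRonPEG5 was 2 without vehicle 3 or AdipoRonPEG5 3.

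A further list held genes better known for the response to interferon-gamma. Of 27 tested, 25 rose and none fell with AdipoRonPEG5 against vehicle (median log2 1.37), and 10 rose with AdipoRon against vehicle (median 0.87), with 17 not called. Between AdipoRonPEG5 and AdipoRon 3 were higher and none lower (median 0.45), where the 10 antiviral genes had 3 lower and a median of -0.46. Cxcl9, a chemokine for T cells, rose with AdipoRonPEG5 by 2.20 ± 0.29 (edgeR adjusted p = 0.001), Gbp2, a guanylate-binding protein, by 1.74 ± 0.25 (adjusted p = 0.0014), and Ciita, the regulator of MHC class II genes, by 2.61 ± 0.37 (adjusted p = 0.00144). With AdipoRon, Nlrc5, the regulator of MHC class I genes, rose by 0.73 ± 0.10 (adjusted p = 0.00431). Ubd, a ubiquitin-like gene, had 8.391, 8.669 and 8.509 CPM in the AdipoRonPEG5 libraries, 1.728, 0.1111 and 0.9568 CPM in the AdipoRon libraries, and 0.3085, 0.299 and 1.265 CPM in the vehicle libraries. It was higher with AdipoRonPEG5 than with AdipoRon by 3.22 ± 0.54 (adjusted p = 0.00985). Its value in AdipoRon 2 lay under the floor of 3 counts (0.17 CPM in that library), so the size of this difference is uncertain. The count called with AdipoRon was 3 without vehicle 1, 1 without vehicle 2, 6 without vehicle 3 and 3 without AdipoRon 1. The count between the compounds was 1 without vehicle 2, AdipoRon 2, AdipoRon 3, AdipoRonPEG5 1 or AdipoRonPEG5 3, and 11 without AdipoRon 1.

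**Figure D4:**
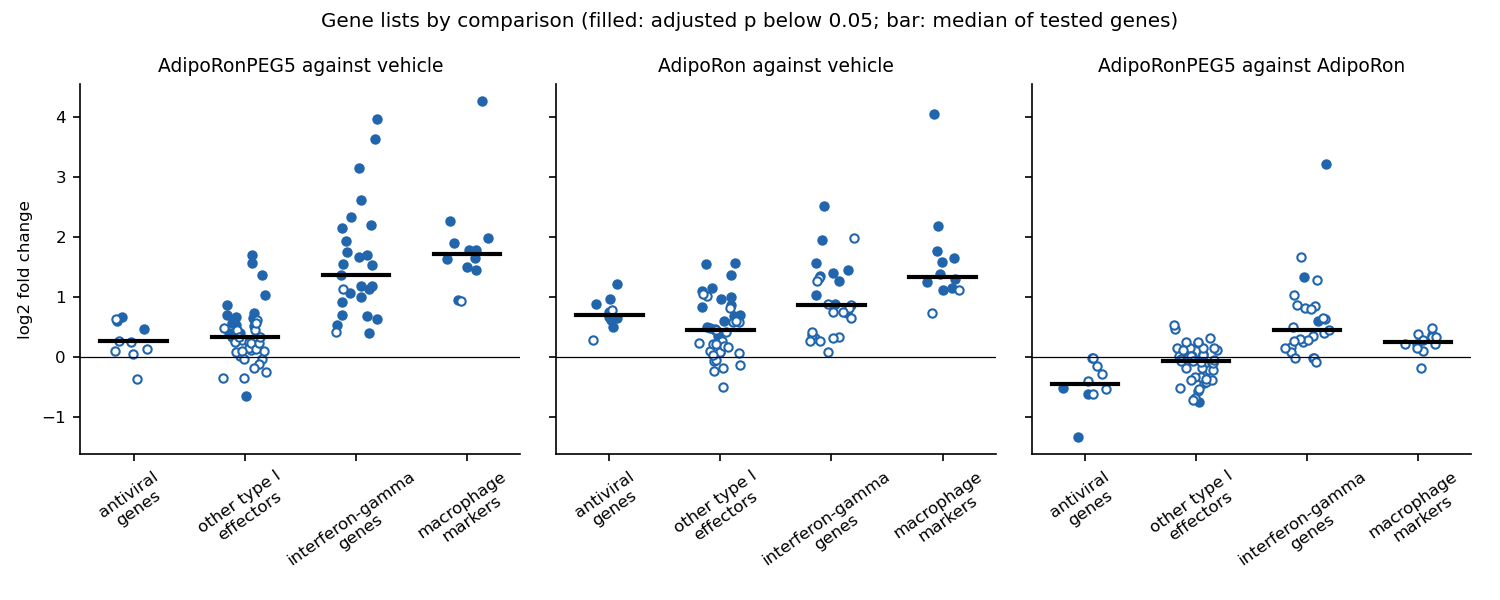
Log2 fold change of every tested gene in 4 lists (the 10 antiviral genes, other type I effectors, interferon-gamma genes, macrophage markers) in the 3 comparisons; filled points have an edgeR adjusted p below 0.05 and bars are medians. Between AdipoRonPEG5 and AdipoRon the bar lies at -0.46 for the antiviral genes and at 0.45 for the interferon-gamma genes.

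Markers of immune cells were counted in the same way. Of 12 macrophage and Kupffer cell markers, 11 rose with AdipoRonPEG5 (median log2 1.71), 10 rose with AdipoRon (median 1.33), and none was called between the compounds (median 0.25). Their summed level was 723.2, 710.4 and 753.9 CPM in the AdipoRonPEG5 libraries, 830.1, 537.5 and 464.6 CPM in the AdipoRon libraries, and 212.2, 198.1 and 282.4 CPM in the vehicle libraries. AdipoRon 1 had the highest sum both of these markers and of the 10 antiviral genes, and AdipoRon 3 the lowest of its group in both. Marco, a scavenger receptor of macrophages, rose by 4.26 ± 0.31 with AdipoRonPEG5 (edgeR adjusted p = 3.64e-05) and by 4.05 ± 0.31 with AdipoRon (adjusted p = 0.000389). Of 4 tested monocyte markers 3 rose with AdipoRonPEG5 and none with AdipoRon against vehicle. Among those 3, S100a4 was a low-count gene that left the tests when a mean of 1 CPM was required, so its call is weak support. Ccr2, a chemokine receptor of recruited monocytes, was higher with AdipoRonPEG5 than with AdipoRon (log2 1.47 ± 0.22, edgeR adjusted p = 0.00573). Lymphocyte markers were close to the floor, with all 11 listed summing to 6.0 to 7.5, 3.7 to 6.2 and 1.0 to 2.3 CPM in the AdipoRonPEG5, AdipoRon and vehicle libraries. Of 5 tested, 3 were called higher with AdipoRonPEG5 and 2 with AdipoRon. These passed the low-count filter through the compound groups (Cd3e had 3 counts over all vehicle libraries), so that their calls are no support. The called markers left the tests when a mean of 1 CPM was required. Neither of the 2 tested markers of plasmacytoid dendritic cells, the strongest producers of type I interferon, was called. Cox6a2 of that list, which was not tested and was singled out after its values were seen, had 8, 11 and 12 counts in the AdipoRonPEG5 libraries, 0, 1 and 0 in the AdipoRon libraries and none in vehicle. Without the filter 1 gene of the list was called higher with AdipoRonPEG5 against either other group. A call that appears only once the filter is removed is no support either. None of the neutrophil markers was tested (Ly6g was at 0 in all 9 libraries). Without AdipoRon 3 the monocyte count with AdipoRonPEG5 was 5, above the 4 tested with all libraries. The low-count filter was applied anew in each refit, so the set of tested markers had changed. The lymphocyte count with AdipoRon was 0 without vehicle 1, vehicle 2, AdipoRon 1 or AdipoRon 3 and 1 without vehicle 3, AdipoRon 2 or any 1 AdipoRonPEG5 library. Between the compounds 1 macrophage marker was called without AdipoRon 1. The part of these cell types in the levels of the antiviral genes was not tested.

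**Figure D5:**
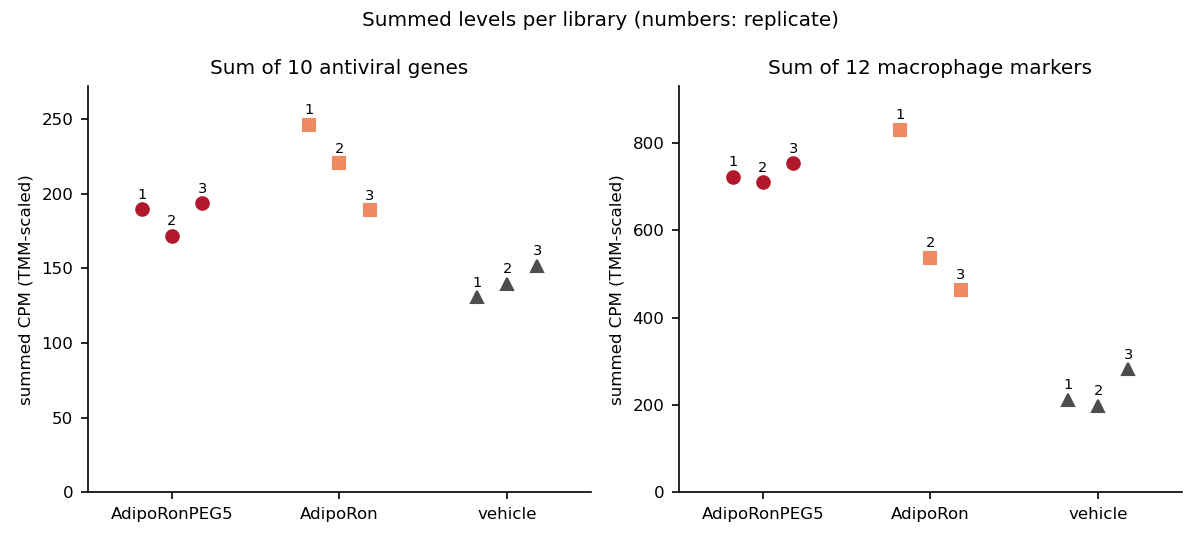
Summed CPM of the 10 antiviral genes (left) and of 12 macrophage and Kupffer cell markers (right) in each library, with AdipoRonPEG5, AdipoRon and vehicle from left to right and replicate numbers beside the points. Irf7 is the largest part of the antiviral sum. AdipoRonPEG5 libraries hold 171.9 to 193.5 CPM of antiviral and 710.4 to 753.9 CPM of macrophage transcripts. AdipoRon libraries hold 189.0 to 246.1 and 464.6 to 830.1 CPM, and vehicle libraries 130.6 to 151.7 and 198.1 to 282.4 CPM.

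Within groups, the 10 genes did not all vary together. On log2 CPM centred on each group, Ifit2 had the highest Pearson correlation with the mean of the other 9 over the 9 libraries (0.83), followed by Usp18 (0.77), Irf7 (0.73), Oas1a (0.70) and Oasl2 (0.60). Isg15 (0.28), Oas2 (0.25), Rsad2 (0.25), Ifit3 (0.009) and Ifit1 (-0.47) were far lower. Among 11837 named genes outside the 10, the 8 most like their mean profile were Ccbl2 (0.98), Syk (0.95), Erbb3 (0.95), Tmem206 (0.95), Aimp2 (0.94), Ficd (0.94), Cd53 (0.94) and Ms4a6d (0.93). Ccbl2, the most alike, had log2 fold changes of -0.01 and -0.05 with AdipoRonPEG5 and AdipoRon against vehicle. Ficd, which modifies a chaperone of the endoplasmic reticulum, fell with both (log2 -0.90, edgeR adjusted p = 0.00415, and -0.72, adjusted p = 0.0294). Erbb3, Tmem206 and Aimp2 were not called against vehicle. Syk, a kinase of immune receptors, rose with AdipoRonPEG5 (log2 1.52) and with AdipoRon (1.45), and so did Cd53, a tetraspanin of leukocytes (1.45 and 1.22), and Ms4a6d (1.73 and 1.53), all with edgeR adjusted p at or below 0.025. These correlations are descriptions over 9 libraries in which all genes share each library's depth and RNA, and the 8 were picked for being the highest. Centring on each group leaves fewer independent values than 9. How often values this high arise among 11837 unrelated genes was not tested.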

How the data were processed

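RNA-seq of total liver RNA gave 9 libraries. The authors deposited 1 table of raw read counts per gene and FPKM, 1 column of each per library; per the file's values, each FPKM is the count over a whole-number length and the library total (within 0.01 for 99.995% of nonzero values). Per the submitters' processing notes, STAR 2.5, TopHat, HTSeq 0.6.1, DESeq2 and edgeR were used, in no given role; build, annotation, strand and read filters are not given in the sources used here. Groups came from the treatment labels, and the AdipoRonPEG5 columns, which carry another prefix, were tied to samples through the descriptions.

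Counts were tested in R 4.3.3 with edgeR 4.0.16: 1 quasi-likelihood fit of 3 group means over all 9 libraries (TMM, filterByExpr, robust off), Benjamini-Hochberg adjustment over 13151 genes within each comparison, threshold 0.05. CPM are TMM-scaled; FPKM served only for levels between genes. Correlations used log2 CPM with a prior count of 2. The 18 alternatives include DESeq2 1.42.0 and limma 3.58.1 (voom). The fit was tested on simulated data. A floor of 3 counts is 0.076 to 0.215 CPM. The gene table of RefSeq gave only names and neighbours. The 10 genes and all lists were chosen with earlier results of these data known, and some genes of these pathways are not reported here. Named genes were the 10, the 3 called genes of lowest p in each list and comparison (2 uncalled where none was called), and the 8 most alike in profile; not all of them are printed. No label says that libraries of a group come from separate mice, so p-values measure only the spread between these samples, which may be technical.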

Additional observations from a re-analysis of the deposited data

How the results depend on the processing

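Of 540 refits of the members' log2 fold changes (30 values under 18 alternatives), 429 kept direction and side of the threshold, 77 kept direction and lost the call, 18 gained a call and 16 turned direction. The calls of Ifit2 and Oas2 with AdipoRon against vehicle, and of Oas2 between AdipoRonPEG5 and AdipoRon, held in all 18. With only the 2 groups compared in the fit, 3 members and 325 genes were called with AdipoRon against vehicle, against 8 and 684 with all 9 libraries. Replicate numbers gave no sign of pairing: correlations of same-numbered libraries ran from -0.268 to 0.077. Vehicle 1 correlated best with AdipoRon 3 (0.243), and the highest value was 0.316, for vehicle 3 and AdipoRon 2. Values centred within groups of 3 libraries cannot exclude pairing. With a replicate block 0 members were called with AdipoRonPEG5 against vehicle, 5 members and 444 genes with AdipoRon against vehicle, and 1 member and 338 genes between the compounds. Leaving out 1 library gave 0 to 4 members and 1337 to 2334 genes with AdipoRonPEG5 against vehicle (2260 with all), 2 to 8 members and 250 to 624 genes with AdipoRon against vehicle, and 1 to 3 members and 233 to 1032 genes between the compounds (709 with all). Values near 0 turned direction, none of them called. With vehicle 3 and AdipoRonPEG5 1 both left out, AdipoRonPEG5 against vehicle gave -0.0302 for Ifit1, -0.0050 for Ifit3, -0.047 for Rsad2 and -0.0421 for Mx1, and Irf7 between the compounds gave 0.0184. Rsad2 was -0.0144 under limma-voom, Irf7 between the compounds 0.00030 when only genes averaging at least 1 CPM were kept and 0.0035 under limma-voom, and Irf9 with AdipoRonPEG5 0.0506 under total-count scaling. Leaving out 1 library, the ranges with a change of direction were -0.0536 to 0.1967 for Rsad2, -0.0708 to 0.1372 for Mx1, -0.2295 to 0.0318 for Stat2 and -0.0938 to 0.015 for Irf9 with AdipoRonPEG5 against vehicle, -0.0176 to 0.1731 for Mx2 with AdipoRon against vehicle, and -0.2813 to 0.0386 for Oas1a, -0.1383 to 0.0509 for Isg15 and -0.1364 to 0.1511 for Irf7 between the compounds. The causes were not tested. Ligand genes lie under the depth needed for a test.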
